A study of Mus musculus with 6 samples.

Results

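MafA is a basic leucine zipper transcription factor that binds MAF recognition elements and drives insulin transcription in mature pancreatic beta cells. H3K4me3, trimethylation of lysine 4 on histone H3, is deposited mainly at the promoters of active genes. Distal regulatory elements usually carry H3K4me1 instead, although strongly active ones can carry H3K4me3 as well, and a gene can also have further promoters inside its body. The regions described here are those where both signals met away from the ends of annotated genes.

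A region of a target was the union of peaks from its 2 replicate libraries that shared at least 1 bp, with a peak from each. Of 25894 MafA regions, 2312 overlapped an H3K4me3 region and had a midpoint more than 1 kb from every end of a RefSeq gene of GRCm38. They were 8.93% of all MafA regions and 38.0% of the 6078 that overlapped H3K4me3. They were selected on the peak calls of all 4 libraries and on gene positions, so their number, their mark and their distances describe the choice and were not tested. They are called members below. The rule used midpoints, and the span of 310 members came within 1 kb of a gene end.

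The libraries were made by CUT&RUN, in which an antibody on permeabilised cells tethers a nuclease that releases the DNA around its target, from MIN6 cells. MIN6 is a mouse insulinoma line from animals that carry the simian virus large T antigen under an insulin promoter, so it is a dividing tumour line with beta cell properties. Each of the 3 groups, endogenous MafA, H3K4me3 as the positive control and IgG as the negative control, had 2 replicate libraries of 500000 cells, and peak lists of the 4 MafA and H3K4me3 libraries were used. The labels do not say that replicates came from separate cultures, so spread between them may be technical.

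The lists held 16020 and 16904 H3K4me3 peaks and 33013 and 42747 MafA peaks in replicates 1 and 2. Read totals were not given, but whole fragments at summits could be recovered. A median summit held 759 and 263 fragments for H3K4me3 and 25 and 46 for MafA. H3K4me3 lay at the gene ends of 9 of 10 beta cell marker genes, the exception being Ins1. It lay at those of 1 of 3 other islet hormone genes (Gcg), at 0 of 6 acinar and duct genes, at 0 of 5 blood, vessel and stroma genes, and at 1 of 3 liver, lung and muscle genes (Sftpc).

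The mark under the members took 3 forms. At 608 members (26.3%) the H3K4me3 region came within 1 kb of a gene end, and it covered the end at 402 of them. These are called gene-end-mark members. At 377 members (16.3%) it came within 1 kb of an annotated transcript start that lies inside a gene, away from its ends. At the other 1327 members (57.4%, 95% Wilson interval 55.4 to 59.4%) it reached neither, and these are called isolated-mark members. The name refers to annotated gene ends and starts only, as distances to other H3K4me3 regions were not measured. At Nfil3 an isolated mark ended at position 52977217 of chromosome 13, and a gene-end mark began at 52977640. Intervals on shares cover counting error only.

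Some members inside genes therefore lay at annotated alternative starts. The 377 internal-start members concerned 354 genes, the mark covered the start itself at 359 of these members, and the MafA region covered one at 262. Where both MafA summits of a member fell into the window from 250 bp before to 50 bp after an annotated start, the reference sequence could be examined. This held for 70 members and 72 windows, 58 of the members at internal starts, 12 with a gene-end mark and 0 with an isolated mark. The following 5 are shown because they are internal starts with MafA on them. Gm41485 and Fgd4 had the best MafA ranks of all 70, and Idh2, Rcan1 and Clasp2 were the next internal-start genes by MafA rank whose 250 bases before the start hold TGCTGA. This choice was made after their values were seen. Each line gives those 250 bases, 5′ to 3′ on the strand of the gene, from RefSeq on GRCm38.p6. Capitals mark TGCTGA, a half-site of the MAF recognition element, and TGANTCA, the AP-1 type core, on either strand (TCAGCA is TGCTGA on the other strand).
Gm41485: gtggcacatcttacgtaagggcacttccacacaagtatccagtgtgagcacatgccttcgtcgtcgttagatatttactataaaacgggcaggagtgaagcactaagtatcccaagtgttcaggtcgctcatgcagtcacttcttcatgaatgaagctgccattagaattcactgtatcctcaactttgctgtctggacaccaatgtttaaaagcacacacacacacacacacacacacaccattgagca
Fgd4: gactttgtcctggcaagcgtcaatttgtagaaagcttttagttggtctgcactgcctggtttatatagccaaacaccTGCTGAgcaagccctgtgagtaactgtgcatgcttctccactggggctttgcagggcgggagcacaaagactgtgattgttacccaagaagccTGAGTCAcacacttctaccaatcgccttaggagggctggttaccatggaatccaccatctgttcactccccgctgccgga
Idh2: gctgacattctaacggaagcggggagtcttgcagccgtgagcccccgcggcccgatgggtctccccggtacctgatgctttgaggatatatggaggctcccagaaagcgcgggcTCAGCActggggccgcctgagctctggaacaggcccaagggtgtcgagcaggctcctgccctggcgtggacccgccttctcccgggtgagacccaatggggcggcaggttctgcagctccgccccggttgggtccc
Rcan1: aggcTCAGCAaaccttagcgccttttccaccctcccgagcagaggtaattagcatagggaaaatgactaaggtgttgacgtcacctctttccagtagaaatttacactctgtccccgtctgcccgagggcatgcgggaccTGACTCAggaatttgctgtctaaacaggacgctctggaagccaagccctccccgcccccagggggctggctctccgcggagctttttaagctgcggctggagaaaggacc
Clasp2: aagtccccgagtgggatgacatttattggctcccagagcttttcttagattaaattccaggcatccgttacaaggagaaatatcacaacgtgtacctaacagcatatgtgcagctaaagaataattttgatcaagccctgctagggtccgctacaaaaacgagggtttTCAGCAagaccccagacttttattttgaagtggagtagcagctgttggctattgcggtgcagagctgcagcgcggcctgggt

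The Gm41485 window (chr16:87612422-87612671, minus strand), before an internal start of a gene model of unknown function, held the strongest MafA signal of these. MafA fold enrichment, the ratio of the fragment pileup to the modelled background at the summit with 1 added to each, was 23.3 and 20.9 in replicates 1 and 2, and H3K4me3 fold enrichment was 3.58 and 5.13. Its 250 bases hold neither motif. The Fgd4 window (chr16:16560220-16560469, minus strand) lies before a start of a guanine nucleotide exchange factor for the GTPase Cdc42. MafA fold enrichment there was 16.4 and 20, H3K4me3 fold enrichment was 13.1 and 12.0, and TGCTGA lay 44 bp from the mean MafA summit. Both windows thus combined strong MafA signal in both replicates with H3K4me3, and they differed in the motif.

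At Idh2, the mitochondrial NADP-dependent isocitrate dehydrogenase (chr7:80115351-80115600, minus strand), MafA fold enrichment was 6.21 and 7.72 and H3K4me3 fold enrichment was 27.0 and 23.1. The motif lay 93 bp from the summit. At Rcan1, an inhibitor of calcineurin (chr16:92400079-92400328, minus strand), the values were 5.65 and 7.98 for MafA and 6.56 and 7.31 for H3K4me3, and TGCTGA lay 221 bp away. At Clasp2, which binds microtubule plus ends (chr9:113793080-113793329, plus strand), MafA fold enrichment was 6.34 and 6.46, H3K4me3 fold enrichment was 9.30 and 11.3, and the motif lay 120 bp away.

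Over whole windows of 300 bases, TGCTGA on either strand was found in 26 of the 72 member windows (36.1%, 95% Wilson interval 26.0 to 47.6%). All 32851 RefSeq windows of that length held it at 19.5%, and the 4728 at internal starts at 21.5%. MafA regions at marked gene ends with both summits in a window gave 111 of 578 windows (19.2%, 16.2 to 22.6%), and internal starts in H3K4me3 regions without MafA gave 113 of 918 (12.3%, 10.3 to 14.6%). Median GC content was 61.7% in member windows, 62.7% in these gene-end windows and 63.0% in these internal-start windows. It was 52.7% in all windows and 51.7% at all internal starts. TGANTCA, which can overlap TGCTGA, was found in 6 of the 72 (8.33%, 3.88 to 17%), 3.29% of gene-end windows and 7.81% of all windows. Internal starts held it at 4.90% in H3K4me3 regions without MafA and at 8.10% in all. These shares are descriptions without a test. Windows of neighbouring starts share bases, and the windows hold few members, none of them with an isolated mark.

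The isolated marks were small and weak beside the others. The median width of the H3K4me3 region was 3104.5 bp under gene-end-mark members, 2185 bp under internal-start members and 882 bp under isolated-mark members. Median H3K4me3 fold enrichment in replicates 1 and 2 was 19.3 and 17.2 at gene-end marks, 13.6 and 13.1 at internal starts and 5.21 and 5.84 at isolated marks. Isolated-mark summits held a median of 128 and 57 H3K4me3 fragments, against 1281.5 and 463 at gene-end marks. The order of the 3 forms was the same in both replicates. No test was made here or between the other classes below, because regions of 1 library are not replicates and the mark was part of the rule.

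Median MafA fold enrichment was highest at isolated marks and lowest at internal starts in both replicates. It was 4.33 and 4.49 at gene-end marks, 3.89 and 4.36 at internal starts and 5.46 and 6.08 at isolated marks. Fragments at the MafA summit did not follow that order. They had medians of 49 and 110 at gene-end marks, 52 and 111 at internal starts and 44 and 99 at isolated marks. The modelled background is the denominator of fold enrichment and is in scaled pileup units. It was 10.5 and 16, 11.9 and 19, and 7.02 and 11 in the same order, and moved with the difference in fold enrichment.

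**Figure D1:**
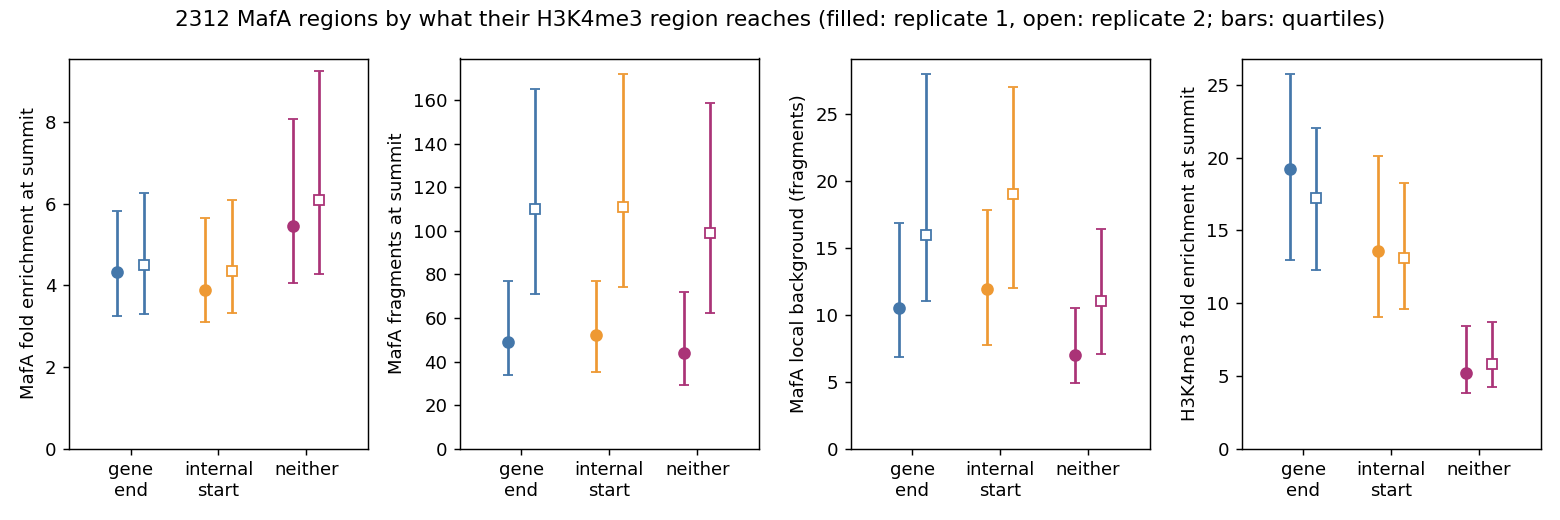
MafA fold enrichment, MafA fragments at the summit, modelled background and H3K4me3 fold enrichment of the 2312 members by what their H3K4me3 region reached. Background is in units of the scaled pileup, although its axis says fragments. Points are medians, with replicate 1 filled and replicate 2 open, and bars run between quartiles; median H3K4me3 fold enrichment was 5.21 and 5.84 at isolated marks against 19.3 and 17.2 at gene-end marks.

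MafA and H3K4me3 summits lay closest at isolated marks. The median distance between them was 104 bp in replicate 1 and 92 bp in replicate 2 there, 335 and 297 bp at internal starts, and 1045 and 940 bp at gene-end marks. Both replicates placed the summits within 100 bp of each other at 477 isolated-mark members (35.9%), 92 internal-start members (24.4%) and 56 gene-end-mark members (9.21%). The widths of the regions moved with these distances, and their part was not tested. At 61.2% of isolated-mark members the MafA region was wider than the H3K4me3 region, against 7.57% at gene-end marks. Both MafA summits fell within the mark at 86.7% of isolated-mark members, 97.3% of internal-start members and 90.5% of gene-end-mark members.

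**Figure D2:**
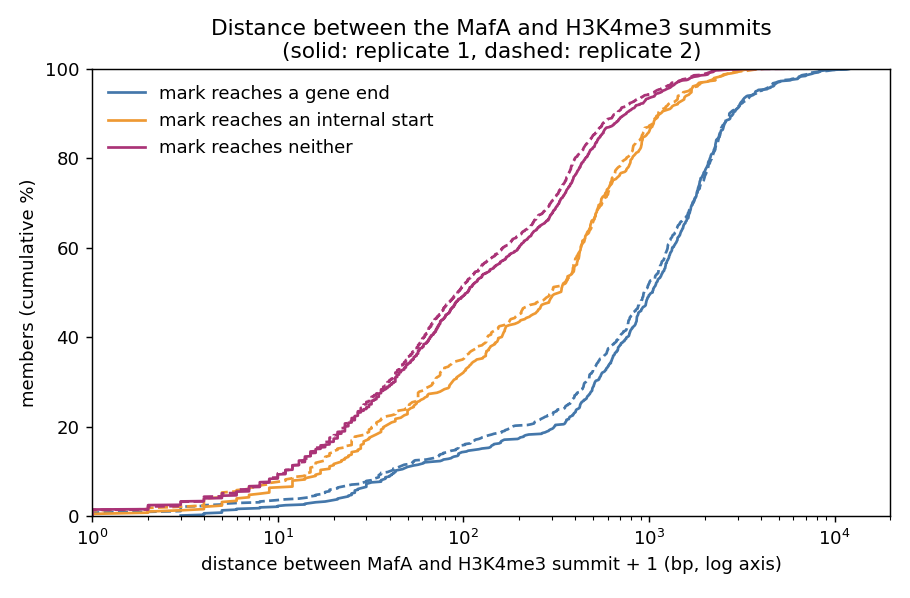
Cumulative share of members by the distance between the MafA and H3K4me3 summits, in bp plus 1 on a log axis. Solid lines are replicate 1 and dashed lines replicate 2; the curves for isolated marks lie left of the others, with medians of 104 and 92 bp.

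At 647 members (28.0%) MafA fold enrichment exceeded that of H3K4me3 in both replicates. The 2 fold enrichments come from different antibodies and libraries and are not on a common scale. Replicates of the 2 targets were paired by number only, here and for the summit distances and correlations. The share was 43.9% at isolated marks, 7.43% at internal starts and 5.92% at gene-end marks. The 314 members with a mean MafA fold enrichment of at least 10 had median H3K4me3 fold enrichment of 5.20 and 5.85, and 79.3% were isolated. The 709 members below 4 had 14.1 and 13.1, and 39.2% were isolated. Across the members of a form, the Spearman correlation of MafA with H3K4me3 fold enrichment was weak. In replicates 1 and 2 it was -0.14 and -0.15 at 1327 isolated marks, -0.21 and -0.10 at 377 internal starts, and -0.14 and -0.08 at 608 gene-end marks. With MafA fragments in place of fold enrichment, the correlation with H3K4me3 fragments was positive, at 0.36 and 0.36, 0.37 and 0.42, and 0.23 and 0.21 in the same order. These points share libraries and background. MafA fold enrichment of the replicates correlated across all 2312 members with a rho of 0.826, also a description.

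**Figure D3:**
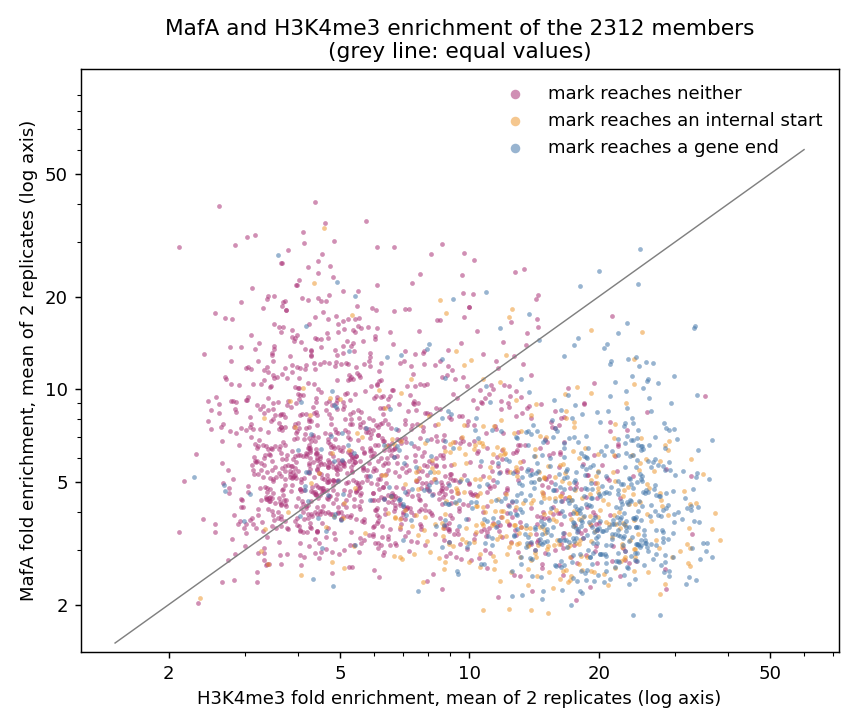
Mean MafA against mean H3K4me3 fold enrichment (2 replicates each, both axes log) for each of the 2312 members, coloured by what the mark reached. The grey line marks equal values, although the 2 targets share no common scale. MafA had the higher value in both replicates at 43.9% of isolated-mark members, against 5.92% of gene-end-mark members.

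Set beside other MafA regions, the members stood between those at marked gene ends and those without a mark. Median MafA fold enrichment was 4.84 and 5.27 at members, 3.95 and 4.23 at 3766 MafA regions on marked gene ends, and 5.84 and 6.41 at 18540 unmarked regions over 1 kb from gene ends. The log2 ratio of the medians was 0.30 ± 0.017 (SD, n = 2 replicates) against marked gene ends and -0.28 ± 0.0074 against unmarked regions. Counted in fragments the order changed. Members had medians of 47 and 104 fragments, marked gene ends 58 and 130, and unmarked regions 25 and 51, with log2 ratios of -0.31 and 0.97. Background medians, in scaled pileup units, were 8.42 and 13, 14.7 and 23, and 3.47 and 5. Fold enrichment of at least 10 in both replicates was found for 266 members (11.5%). It was found for 11.6% of all MafA regions, so this share was near the background. It was 3.85% at marked gene ends and 13.0% at unmarked regions.

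H3K4me3 at members was below that at marked gene ends, with median fold enrichment of 8.41 and 8.61 against 17.6 and 16.2, a log2 ratio of -0.99 ± 0.107 (SD, n = 2). The median MafA peak at a member was 685 bp wide in replicate 1 and 964 bp in replicate 2, and the median H3K4me3 peak 1380 and 1386 bp. The means, 824.5 ± 197 bp and 1383 ± 4.24 bp (SD, n = 2 each), differed by -558.5 bp. These are widths of the peaks that chose the members, and the exact permutation test over the 4 libraries, p = 0.33 (two-sided), cannot give less with 2 libraries a side, so it says nothing on the difference.

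The share of distal MafA regions that carried H3K4me3 depended on the measure by which they were ranked. All 20852 MafA regions over 1 kb from gene ends were ranked over both replicates and divided into 4 groups of 5213. Ranked by modelled background, 1.21% carried the mark in the lowest group and 34.0% (32.7 to 35.3%) in the highest. Ranked by fragments, the shares rose from 1.55% to 25.1% (24.0 to 26.3%). Ranked by fold enrichment, they fell from 19.6% (18.5 to 20.7%) in the lowest group to 8.27%, 7.77% and 8.71% in the others. By MafA peak width the share rose from 9.05% in the lowest group to 14.2% in the highest. The mark and the background thus went together across these regions, and the part of the background in the calls was not tested.

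**Figure D4:**
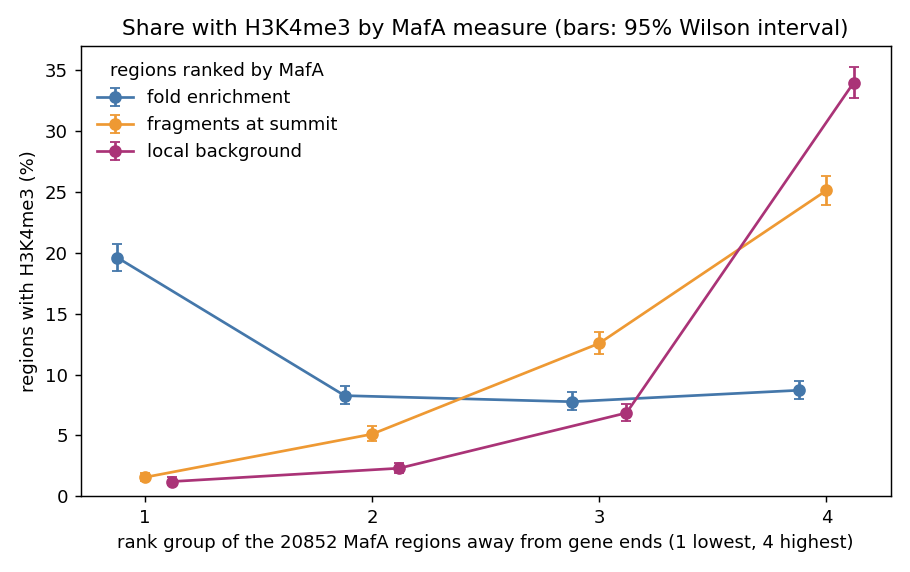
Share of MafA regions over 1 kb from gene ends that overlapped H3K4me3, in 4 equal rank groups from lowest (1) to highest (4), ranked by MafA fold enrichment, fragments or modelled background. Bars are 95% Wilson intervals; the share reached 34.0% in the highest background group and 8.71% in the highest fold enrichment group.

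Seen from the mark, a larger share of isolated H3K4me3 regions than of the others overlapped MafA. MafA regions overlapped 1326 of 2729 isolated H3K4me3 regions (48.6%, 95% Wilson interval 46.7 to 50.5%), 362 of 925 at internal starts (39.1%, 36.0 to 42.3%) and 4144 of 11919 at gene ends (34.8%, 33.9 to 35.6%). Starts were listed for 27025 genes only, and those on chromosome 18 were not used. A mark at any other internal start, away from gene ends, counts as isolated. Among isolated H3K4me3 regions, those with MafA had a median H3K4me3 fold enrichment of 5.09 and 5.73 against 6.07 and 6.48 for those without, with 127 and 56 fragments against 128 and 55. Members lay over 2269 H3K4me3 regions in all, of which 66 held 2 members and 1 held 3. These members share a mark and are not independent.

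Members lay from 1000.5 to 522756 bp from the nearest gene end, with a median of 5325 bp. Of those between 1 and 2 kb, 13.3% had an isolated mark, rising to 54.7% between 2 and 5 kb, 71.7% between 5 and 10 kb and 81.6% between 10 and 50 kb. For the 151 members beyond 50 kb it was 75.5%. The limit of 1 kb cut through similar regions. The 100 members just beyond it had median MafA fold enrichment of 4.27 and 4.11 and H3K4me3 of 14.2 and 13.9, and the 100 marked regions just within it had 4.43 and 4.37 and 15.8 and 15.0. Midpoints lay inside a gene for 73.8% of members, 63.9% of MafA regions at marked gene ends and 61.6% of unmarked distal ones. The share was 60.6% for isolated-mark members, 86.5% for gene-end-mark members and 100% for internal-start members, whose mark is defined by a start inside a gene. Internal-start members are counted in the 73.8%.

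The member with the best MafA rank lay inside Gse1 (chr8:120436048-120439965). It had MafA values of 37.6 and 43.6 in the replicates, from 206 and 453 fragments, and H3K4me3 fold enrichment was 4.32 and 4.44. The MafA summits lay 2936 and 2940 bp from the H3K4me3 summits, so MafA peaked outside the isolated mark that the region touched. In contrast, the summits of the 2 targets coincided to within 72 bp in both replicates at the 4 members next in rank. These were inside Sv2c, a synaptic vesicle glycoprotein (chr13:95960910-95962990, MafA 36.7 and 42.0, H3K4me3 2.38 and 2.85), and inside Itpkb, an inositol trisphosphate kinase (chr1:180363729-180366544, MafA 33.3 and 36.2, H3K4me3 4.05 and 5.20). The others were at an internal start of Gm32605 (chr10:117899281-117900822, MafA 31.7 and 35.3, H3K4me3 3.96 and 5.21), and inside Nectin4, a cell adhesion protein (chr1:171379443-171382228, MafA 38.6 and 31.6, H3K4me3 5.21 and 6.28).

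The remaining 5 of the top 10 lay inside Zfp462, Trio, Iqca1l and Plcb4 and outside protein-coding genes, nearest to Sqle at 35611 bp, with MafA fold enrichment from 28.4 to 34.9 and H3K4me3 from 2.57 to 5.98. At Plcb4 the distance between the MafA and H3K4me3 summits was 6 and 18 bp in replicates 1 and 2. It was 753 and 8 bp at Zfp462 and 19 and 331 bp at Iqca1l. At Trio (375 and 348 bp) and Sqle (460 and 410 bp) both MafA summits lay outside the mark, as at Gse1. Among the 10, 9 had an isolated mark. Those at Sv2c, Zfp462, Trio, Iqca1l and Sqle were no longer members among the 15000 strongest peaks of each list, and Iqca1l was also lost at a −log10 q of at least 5.

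The members with the best H3K4me3 ranks were of another make. They lay at internal starts of Mto1 (a mitochondrial tRNA modification enzyme), Nfe2l1 (a stress-responsive transcription factor that binds related elements with small MAF proteins) and Dgcr6, and on gene-end marks at Mtcl1 and Agpat3. At Mto1 H3K4me3 fold enrichment was 40.1 and 36.6 and MafA 3.23 and 3.27. At Nfe2l1 the values were 40.8 and 32.4 for H3K4me3 and 3.06 and 4 for MafA. Over all 5, MafA stayed between 2.70 and 5.26.

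The 5 members farthest from any gene end lay inside Nrxn3, Nckap5, Rbfox1, Foxp2 and Dpp6, among them a presynaptic neurexin (Nrxn3), a neuronal splicing regulator (Rbfox1) and an auxiliary subunit of potassium channels (Dpp6). At Nrxn3, Nckap5 and Dpp6 the mark covered an annotated internal start. At Foxp2 (chr6:15184300-15185653) an isolated mark of 2989 bp had H3K4me3 fold enrichment of 13.5 and 13.1 and MafA of 10.1 and 14.0. At Rbfox1 MafA was 5.35 and 7.47 from only 13 and 33 fragments.

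Members with the largest disagreement between MafA replicates were weak in at least 1 of them. Ccdc171, St6galnac6, Pdlim5, Arhgef15 and Slc25a51 had 5.40 to 6.76 in replicate 1 and 2.08 to 2.61 in replicate 2. Pigv, Dtnb, Sipa1l1, Cerkl and Mpp7 had 1.99 to 3.96 and 6.02 to 10.7. The modelled background, in scaled pileup units, differed as well. At Ccdc171, St6galnac6, Pdlim5, Arhgef15 and Slc25a51 it was 2.25 to 7.28 in replicate 1 and 6.00 to 31.0 in replicate 2. At Pigv, Dtnb and Cerkl it was higher in replicate 1 (21.1, 7.02 and 6.32) than in replicate 2 (13.3, 3.91 and 3.91). At Sipa1l1 and Mpp7 it was 7.02 and 4.91 in replicate 1 and 10 and 7 in replicate 2. Over all members its medians were 8.42 and 13. Its part in the disagreement was not tested.

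Genes that carried a member inside them or within 10 kb were then counted. Nearness is not evidence that a region controls a gene, and longer genes have more room. Of 21900 protein-coding genes, 2043 (9.33%) carried a member, and of the 12213 with H3K4me3 at an end, 1564 (12.8%) did. Gse1 carried 10 members, 9 of them isolated, Maml3 (a Notch coactivator) 8, and Bcor (a transcriptional corepressor) and Pde4d (a cAMP phosphodiesterase) 6 each. Bcor had 6 MafA regions in all, so each was a member, whereas Pde4d had 32.

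**Figure D5:**
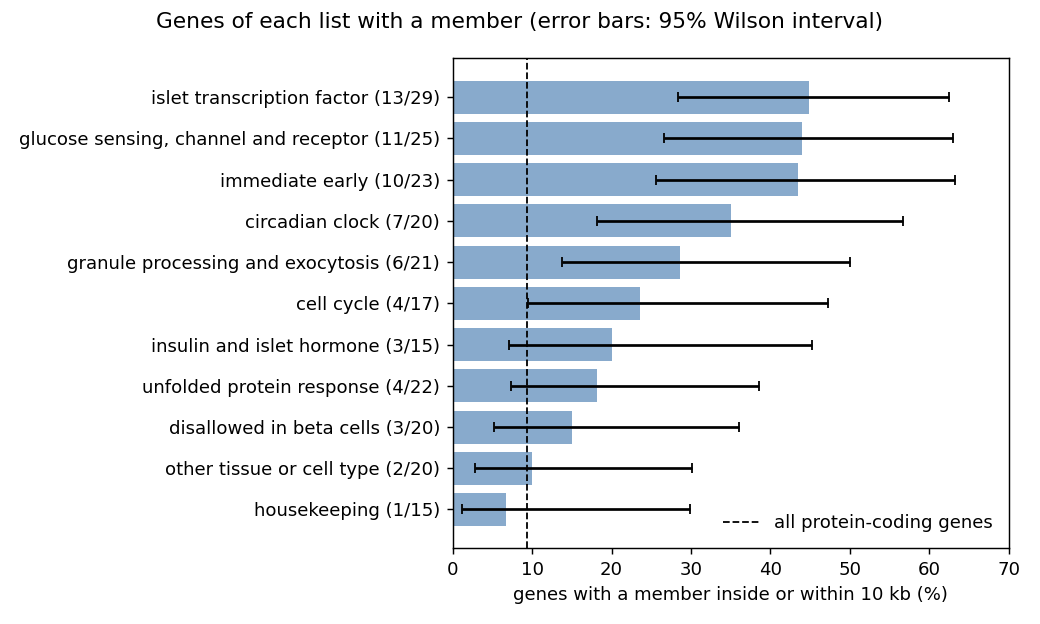
Share of the genes of 11 lists that carried a member inside or within 10 kb, in percent, with the counts in the labels. Error bars are 95% Wilson intervals and the dashed line is the share of all protein-coding genes, 9.33%; islet transcription factors stand at 13 of 29 and housekeeping genes at 1 of 15.

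Transcription factors of the islet carried members at 13 of 29 genes (44.8%, 95% Wilson interval 28.4 to 62.5%). Among those with H3K4me3 at an end the count was 10 of 22. Of the 22 with any MafA region, 13 carried a member (59.1%), and over all protein-coding genes 2043 of 9639 did (21.2%). Their median length was 18950 bp, against 17146 bp for all protein-coding genes.

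Pdx1, a factor for pancreas formation and insulin transcription whose upstream control region is known to bind MafA, had 2 members. The stronger (chr5:147265984-147270387) had MafA fold enrichment of 18.2 and 25 from 425 and 1104 fragments, and H3K4me3 fold enrichment of 19.6 and 16.6. Its midpoint lay 1911.5 bp outside the gene, but the MafA region itself extended over the gene end. It lay on a mark of 10896 bp that reached the gene end, and was no member with the limit at 2 kb. The weaker had MafA of 2.42 and 3.41 on the same mark. Mnx1, a homeodomain factor of beta cell identity, had a member 6222 bp outside the gene (chr5:29483753-29485631) with MafA of 19.7 and 24.7 and H3K4me3 of 4.28 and 10.4, on an isolated mark of 2976 bp.

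Bach2, a repressor that binds MAF recognition elements, had 4 members among its 20 MafA regions. The strongest (chr4:32529840-32533714) had MafA of 24.9 and 27.2 and H3K4me3 of 4.93 and 3.99. The next (chr4:32246199-32251570) had 19.1 and 17.9 with H3K4me3 of 11.5 and 8.38. Summits of the targets lay at most 91 bp apart at both, on isolated marks. Nkx6-1, a beta cell homeodomain factor, had a member (chr5:101655742-101657990) with MafA of 6.03 and 6.13 on a mark of 10068 bp, which was lost under 50% reciprocal overlap.

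Pax6, needed for islet hormone genes, lay under the widest mark of all members, 22268 bp, with H3K4me3 of 28.9 and 28.1. Its 2 members had weak MafA, at most 3.55, and the stronger of them was lost at a −log10 q of at least 5. Members at internal starts were found in Esrrg, an orphan nuclear receptor of beta cell maturation, Myt1, Rfx3 and Ldb1. At Rfx3, a factor for cilia and islet differentiation, MafA was 5.69 and 5.10. Summits there held 695 and 1508 fragments, over a background of 121 and 220 in scaled pileup units. Meis2, St18 and Isl1 had isolated-mark members with MafA from 2.55 to 10.1. The member at Isl1 was lost at a −log10 q of at least 5.

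Among glucose sensing genes, channels and receptors, 11 of 25 carried a member (44.0%, 26.7 to 62.9%), 7 of the 18 with a mark at an end, and their median length was 49266 bp. G6pc2, the islet-specific glucose-6-phosphatase subunit, had 3. The strongest (chr2:69218038-69220671) had MafA of 11.3 and 10.3 and H3K4me3 of 10.5 and 11.1. With a further member of 7 and 8.24 it shared a mark of 6650 bp that covered an internal start. The third lay on a mark of 10198 bp at the neighbouring gene Spc25, the one H3K4me3 region that held 3 members. Trpm5, a calcium-activated cation channel that modulates insulin secretion, had an isolated-mark member (chr7:143075618-143078496) with MafA of 16.7 and 21.6 and H3K4me3 of 4.06 and 3.30.

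Cacna1c, the pore subunit of an L-type calcium channel, showed both make-ups in 1 gene. A member on an isolated mark (chr6:118989847-118990911) had MafA of 9.70 and 13.5 and H3K4me3 of 3.87 and 4.44. Another at an internal start (chr6:119108276-119109354) had MafA of 2.47 and 2.88 and H3K4me3 of 34.4 and 30.6. Irs1, an insulin receptor substrate, had 2 members with MafA of 9.63 and 9.46 and of 6.53 and 8.60. The other genes were Gipr, Ffar1, Igf1r, Insr, Irs2, Cacna1a and Sstr3, whose strongest members had MafA from 2.25 to 7.10. Those at Insr and Sstr3 were lost at a −log10 q of at least 5.

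Of the granule processing and exocytosis genes 6 of 21 carried a member (28.6%, 13.8 to 50%), with a median length of 47650 bp: Pam, Snap25, Cpe, Rab3a, Vamp2 and Cplx2. MafA at their strongest members ranged from 2.26 to 7.12, the highest at Vamp2, whose member lies inside the neighbouring clock gene Per1. Of insulin and islet hormone genes 3 of 15 did (20%, 7.05 to 45.2%): Npy with 8.31 and 8.32 on a mark of 5407 bp, Scg3 and Vgf. Neither insulin gene carried a member.

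Immediate early genes, which stimuli switch on within minutes to hours, carried members at 10 of 23 (43.5%, 25.6 to 63.2%), 9 of the 20 with a mark at an end. Their median length was 5297 bp. Dusp1, a MAP kinase phosphatase, had MafA of 7.16 and 8.73 over a gene-end mark, Fos had 6.03 and 6.42 at an isolated mark 9009 bp outside the gene, and Btg2, an antiproliferative gene, had 11.7 and 11.0 at one with an edge within 10 kb of it. Jun, Fosb, Ier2, Nr4a1, Nr4a2, Nr4a3 and Npas4 had 2.67 to 4.61.

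Circadian clock genes carried members at 7 of 20 (35.0%, 18.1 to 56.7%), with a median length of 36926 bp: Bhlhe41, Dbp, Arntl, Rora, Per1, Nfil3 and Tef. Bhlhe41, a repressor of the clock, had MafA of 26.4 and 31.6 (chr6:145855051-145857015), with an H3K4me3 fold enrichment of only 2.02 and 2.20, which was lost at a −log10 q of at least 5. At the rest MafA reached at most 7.12.

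Cell cycle genes had 4 of 17 (23.5%, 9.56 to 47.3%) with MafA from 2.24 to 5.25, namely the cyclin-dependent kinase inhibitors Cdkn2a, Cdkn2c and Cdkn1a and the cyclin Ccnd2. Unfolded protein response genes had 4 of 22 (18.2%, 7.31 to 38.5%), namely the stress sensors Eif2ak3 and Ern1, the transcription factor Xbp1 and the chaperone Hsp90b1, whose strongest members had MafA from 3.29 to 7.09. Genes that beta cells normally keep silent had 3 of 20 (15.0%, 5.24 to 36.0%), at Oat, Maf and Igfbp4, with MafA from 4.48 to 8.78. Genes of other tissues had 2 of 20 (10.0%, 2.79 to 30.1%), of which Sftpc, a lung surfactant protein gene, had a strong member (chr14:70512191-70514718) with MafA of 19.6 and 18.8 and H3K4me3 of 2.6 and 3.28. The Sftpc member was lost at a −log10 q of at least 5. Housekeeping genes had 1 of 15 (6.67%, 1.19 to 29.8%), and 1 of the 11 with any MafA region. The intervals of 6 lists, those of islet factors, glucose sensing, immediate early, clock, granule and cell cycle genes, lay above 9.33%, and those of the other 5 included it. No list was tested. Over all genes with H3K4me3 at an end the share was 12.8%, which the cell cycle interval included. Among such genes, 6 of 19 clock, 6 of 21 granule and 3 of 14 cell cycle genes carried a member. Of those with any MafA region, 36.8%, 35.3% and 40% did, against 21.2% over all protein-coding genes. Genes of a list are not independent, and every interval was wide. Over the other peak, distance and library settings the counts ranged from 5 to 14 for islet transcription factors, 4 to 16 for glucose sensing genes, 2 to 15 for immediate early genes, 2 to 11 for clock genes, 1 to 10 for granule genes, 0 to 7 for cell cycle genes and 0 to 4 for housekeeping genes. The lowest counts of the islet, glucose sensing and immediate early lists came among the 15000 strongest peaks of each library, where 552 of all protein-coding genes (2.52%) carried a member.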

How the data were processed

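MafA and H3K4me3 were mapped by CUT&RUN in MIN6 cells with 2 libraries each; the 2 IgG libraries were not analysed here. Peaks were called with MACS2 on positions of GRCm38 (mm10), per the submitters' processing notes, separately for each library. The control library, aligner and MACS2 version are not given in the sources used here. Fold enrichment, as deposited, is the ratio of pileup to modelled background at a summit, and the deposited −log10 p and −log10 q values belong to the same position. The deposited score was not used.

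Scripts ran in Python 3.11.15 with scipy 1.17.1, pandas 2.3.3 and numpy 2.4.6. Fragments and background at summits were solved from fold enrichment and −log10 p within a relative tolerance of 0.0001, which gave whole fragments for 99.98% to 100% of peaks. Fragments are unscaled counts, and background is in units of the scaled pileup. The routines were tested on simulated data. A region's values are those of its strongest peak in each replicate, and for H3K4me3 those of the strongest peak in the overlapped region. Gene ends came from RefSeq on GRCm38.p6 (49980 genes), and starts and sequences from 32851 RefSeq promoter windows of 27025 genes. Starts on chromosome 18 were not used; without its 80 members, 56.5% of members had an isolated mark. Intervals are 95% Wilson intervals.

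Regions named in the text were the 10 members best ranked by MafA and the 5 best ranked by H3K4me3 fold enrichment, the 5 farthest from gene ends, the 5 H3K4me3 regions with most members, those at listed genes, and the 5 most different between MafA replicates in each direction. All of the 5 H3K4me3 regions except that at Spc25 held 2 members and are not described further. Single values of 2 listed genes with a member are not reported here. Members and gene lists were chosen with earlier results of these data known. Alternatives were stricter peaks, 15000 peaks per list, 50% reciprocal overlap, other distances and gene windows, other measures of strength and leaving out each library.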

Additional observations from a re-analysis of the deposited data

How the results depend on the processing

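The number of members, 2312, kept within 1.5 times its value except among the 15000 strongest peaks of each list (602), beyond 5 kb from gene ends (1198) and without MafA replicate 1 (3511); leaving out each library in turn gave 2397 to 3511. Protein-coding genes with a member numbered 552 among the strongest peaks, 844 beyond 5 kb, 4275 within 50 kb and 1356 inside the gene only, and 2088 to 2983 with a library left out.

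With the limit at 500 bp, 2 kb and 5 kb, the gene-end-mark share of 26.3% became 42.8%, 10.5% and 1.00%, and the isolated share of 57.4% became 44.6%, 69.7% and 77.4%, as the limit itself removes members near gene ends. The isolated share was 62.5% among the strongest peaks, 59.4% with 50% reciprocal overlap and 51.5% to 63.5% with a library left out; the gene-end-mark share was 20.8% with protein-coding genes only and 22.3% to 30.8% with a library left out. The share inside genes was 69.6% among the strongest peaks, 71.8% and 70.5% beyond 2 and 5 kb, and 72.6% to 76.2% with a library left out.

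The log2 ratio of MafA fold enrichment to marked gene ends, 0.30, reversed to -0.31 in fragments and was 0.061 by −log10 q. It was 0.11 among the strongest peaks, 0.36 with 50% overlap, 0.27, 0.37 and 0.39 at 500 bp, 2 kb and 5 kb, 0.33 for both summits, and 0.24 to 0.37 with a library left out. The ratio to unmarked regions, -0.28, reversed to 0.54 by −log10 q and 0.97 in fragments. Requiring a −log10 q of 5 or more gave -0.33. It was -0.041 among the strongest peaks, -0.27 with 50% overlap, -0.33, -0.21 and -0.17 at 500 bp, 2 kb and 5 kb, -0.26 for both summits, -0.30 with protein-coding genes only, and -0.32 to -0.19 with a library left out. The H3K4me3 ratio, -0.99, was -0.71, -1.21 and -1.28 at the 3 distances, -2.49 by −log10 q, -1.93 in fragments, and -1.20 to -0.75 with a library left out. Except where stated, the cause was not tested.

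The width difference with the replicate block was -558.5 bp (exact permutation p = 0.5, the smallest possible); no label ties libraries of one number together. The difference was -162 bp among the strongest peaks. With the limit at 500 bp, 2 kb and 5 kb it was -817.5, -290.5 and -158.75 bp. Leaving out each library in turn gave -858 to -274.5 bp. Of 949 cases of 73 named members under 13 settings, 155 lost the member, 51 of them among the strongest peaks. The isolated share, the gene list counts and the named members were followed over these settings by a choice made after seeing the data. The median of 25 and 46 fragments at a MafA summit restricts statements on single weak members.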
